A study of Mus musculus with 35 samples.

Results

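Transcripts of the La-related proteins and of the poly(A)-binding proteins were examined in laser-dissected lumbar motoneurons, 1 array for each of 35 mice. The members are 10 genes, Larp1, Larp1b, Larp4, Larp4b, Larp6, Larp7, Pabpc1, Pabpc4, Pabpn1 and Paip1, taken as all 24 probe sets that name 1 of them and no other gene, out of 34945 probe sets with 1 gene and 45101 in all. A probe set is a group of short array probes against 1 transcript, and 23 of the 24 passed the filter on dim and flat values. The probe set of Larp1b that failed it (1432353_at) had group medians between 2.73 and 2.93 on the log2 scale. Larp4 was chosen by its values at week 15 (vehicle SOD1 against WT mice, and G-CSF against vehicle), and it brought the family into view. Its differences at week 15 are therefore given as a description with no test, and the other 9 genes, which came in by family, were tested.

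Week 11 gave 6 WT mice (C57BL/6J) and 8 SOD1 mice. Week 15 gave 7 WT mice, 7 SOD1 mice treated with vehicle and 7 SOD1 mice treated with G-CSF. SOD1 mice are of the strain B6.Cg-Tg(SOD1-G93A)1Gur/J, a model of amyotrophic lateral sclerosis with a high copy number of mutant human SOD1, and per the methods the transgenic mice were female and the WT mice were littermates. G-CSF is a blood cell growth factor, given here as filgrastim by an implanted pump from week 11 to week 15, and the vehicle mice carried the same pump. Each array holds the amplified RNA of 300 laser-dissected motoneurons of 1 mouse, with no pooling. The WT mice of both weeks and the SOD1 mice of week 11 are not stated to have had a pump. The week therefore cannot be told apart from the cohort or, in SOD1 mice, from the surgery. In the comparisons of SOD1 with WT mice at week 15, genotype likewise cannot be told apart from the pump and the vehicle.

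La-related proteins share the La motif, an RNA-binding fold first known from the La protein. Larp1 holds mRNAs with a terminal oligopyrimidine tract under the control of TOR, and Larp1b is its paralog. Larp4 binds poly(A) tails. Larp4 and Larp4b both bind the cytoplasmic poly(A)-binding protein and favour mRNA stability and translation. Larp6 binds a stem-loop in type I collagen mRNAs, and Larp7 keeps the 7SK RNA, a brake on transcription elongation, in its particle. Pabpc1 is the main cytoplasmic poly(A)-binding protein, which links the tail to the cap-binding complex, and Pabpc4 is its inducible relative. Pabpn1 coats new tails in the nucleus and sets their length, and Paip1 is a partner of Pabpc1 that promotes translation. Long axons depend on mRNA that is carried and translated far from the cell body, and stable tails are part of that supply.

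Of the 35 arrays, 3 stood apart from their groups, those of WT mouse 6 (week 11), vehicle mouse 3 and vehicle mouse 5. Their median correlation with the arrays of their own group was 0.924, 0.921 and 0.918, against 0.975 to 0.977 for the other WT mice of week 11 and 0.932 to 0.941 for the other vehicle mice. G-CSF mouse 3 also read low, at 0.924 against 0.939 to 0.955 for the other G-CSF mice, and was not counted among the 3. Array medians lay between 3.19 and 3.47 in all 35 mice. All 11 general neuron markers and all 10 motoneuron markers measured had group means over the 20th centile of all values (2.40) in each of the 5 groups. So did all 12 astrocyte, all 9 oligodendrocyte and all 8 interneuron markers measured. This level therefore does not tell motoneurons from other cells.

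Larp4 (gene ID 207214, GRCm38.p6 chr15:99970065-100016358) has 3 probe sets, and all passed the filter. Where in the gene each of them lies was not examined here. Probe set 1455102_at had the largest difference between vehicle and WT mice at week 15. It read 6.51 at the lowest, 6.99 at the median and 7.67 at the highest in WT mice of week 11. In SOD1 mice of week 11 it read 5.76, 6.97 and 7.27 in the same order. In WT mice of week 15 it read 6.43, 6.82 and 7.52. These 3 groups overlapped almost wholly.

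In the vehicle mice the same probe set read 6.63, 4.19, 3.74, 6.31, 2.35, 2.79 and 6.48 in mice 1 to 7, with a mean of 4.64 ± 1.82 (SD, n = 7). Mice 1 and 7 lay inside the WT range of week 15, near its lower edge. Mouse 4 lay just below every WT mouse of either week, and mice 2, 3, 5 and 6 lay further below. In the G-CSF mice it read 7.34, 6.11, 4.94, 6.76, 7.24, 6.86 and 5.35 in mice 1 to 7, with a mean of 6.37 ± 0.94 (SD, n = 7). Mice 1, 4, 5 and 6 lay inside the WT range of week 15, and mice 2, 3 and 7 lay below it. The SD in vehicle mice compares with 0.40 in WT mice of week 15, 0.44 in WT mice of week 11 and 0.47 in SOD1 mice of week 11.

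The mean of the vehicle mice was lower than that of WT mice of week 15 by a log2 difference of -2.36 (SE 0.50), or 5.12-fold. G-CSF mice were higher than vehicle mice by 1.73 (SE 0.50), or 3.32-fold, and stood at -0.63 (SE 0.50) from WT mice. Without the 3 arrays that stood apart the values were -1.72 for vehicle against WT and 1.09 for G-CSF against vehicle. That fit left out vehicle mice 3 and 5, among the lowest of their group here, and kept G-CSF mouse 3, the lowest of its group. Both comparisons share the vehicle mice. Each SE rests on a spread shared by all groups. It is too small for comparisons with the widely spread vehicle mice, and too large between the narrower groups. WT mice of week 15 differed from WT mice of week 11 by -0.07 (SE 0.52).

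**Figure D1:**
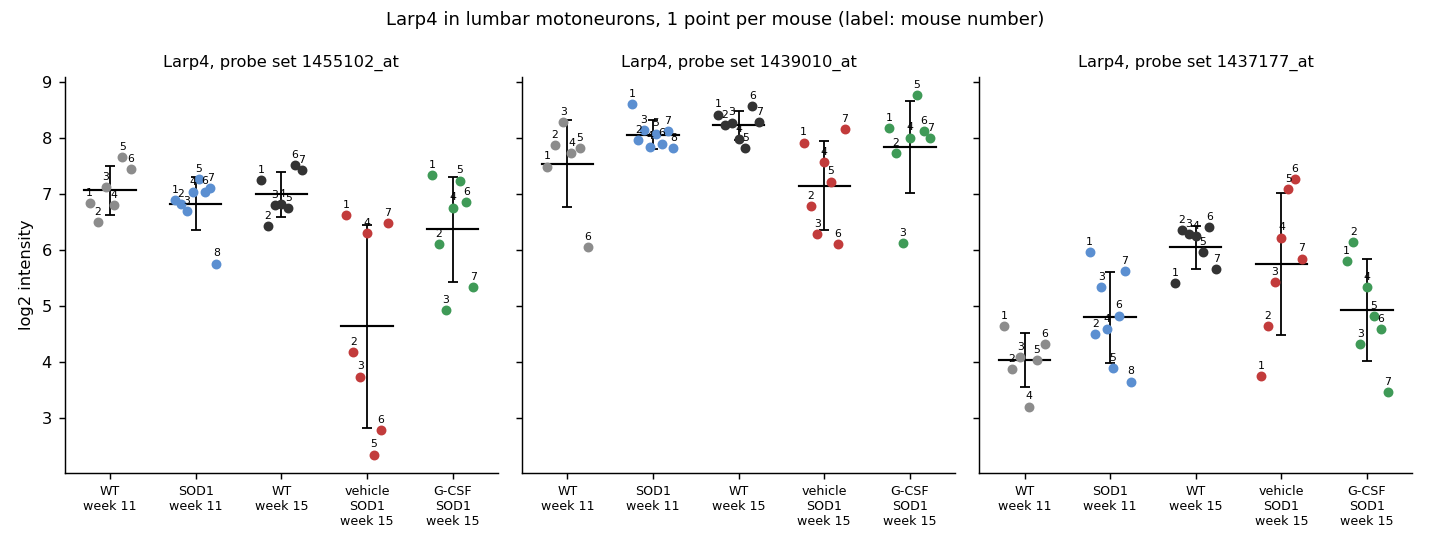
Log2 intensity of the 3 Larp4 probe sets in each of 35 mice, by group. Each point is 1 mouse with its number, the horizontal line is the group mean and the bar is 1 SD; in the vehicle mice 1455102_at ranges from 2.35 to 6.63, while the 3 groups of WT mice and SOD1 mice of week 11 stay between 5.76 and 7.67.

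The other Larp4 probe sets showed other patterns. Probe set 1439010_at, the brightest, read 6.10, 7.23 and 8.16 (lowest, median and highest) in vehicle mice and 7.83, 8.28 and 8.57 in WT mice of week 15. It read 6.12, 8.01 and 8.77 in G-CSF mice. Vehicle mice 2, 3, 4, 5 and 6 lay below all WT mice of week 15, and mice 1 and 7 lay within their range. The difference was -1.08 (SE 0.32) for vehicle against WT, 0.70 (SE 0.32) for G-CSF against vehicle and -0.38 (SE 0.32) for G-CSF against WT. At week 11 it read 6.06, 7.78 and 8.29 in WT mice and 7.83, 8.03 and 8.61 in SOD1 mice, and the lowest WT value is that of mouse 6.

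Probe set 1437177_at did not follow the others. It read 5.41, 6.25 and 6.42 in WT mice of week 15. In mice 1 to 7 of the vehicle group it read 3.76, 4.65, 5.44, 6.23, 7.09, 7.27 and 5.85. Vehicle mice 5 and 6, the lowest of all 35 mice on 1455102_at, were thus the highest of all 35 mice on 1437177_at. In mice 1 to 7 of the G-CSF group it read 5.81, 6.15, 4.33, 5.35, 4.82, 4.59 and 3.47, and 5 of these values lay below every WT mouse of week 15. The difference was -0.30 (SE 0.43) for vehicle against WT, which turned to 0.03 without vehicle mouse 1. G-CSF mice differed from vehicle mice by -0.82 (SE 0.43) and from WT mice by -1.12 (SE 0.43), so that for G-CSF against vehicle the sign was the reverse of that on the other Larp4 probe sets.

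Over all 35 mice, the deviations from the group means on 1455102_at and 1439010_at correlated with an r of 0.57. The r was -0.18 between 1455102_at and 1437177_at and -0.05 between 1439010_at and 1437177_at. These points share the array, and no test was made. On 1455102_at the deviations were widest in the vehicle mice (SD 1.82), which therefore weigh most in its r values. Among the 1689 genes with 3 filtered probe sets, the median range of the differences of 1 gene was 0.58 for vehicle against WT and 0.47 for G-CSF against vehicle. For Larp4 the range was 2.06 and 2.55. A range at least as wide was found in 10 of the 1689 genes (0.592%) for vehicle against WT and in 2 (0.118%) for G-CSF against vehicle, Larp4 included. Larp4 was chosen for a large difference at 1 of its probe sets, and these shares are a description.

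**Figure D2:**
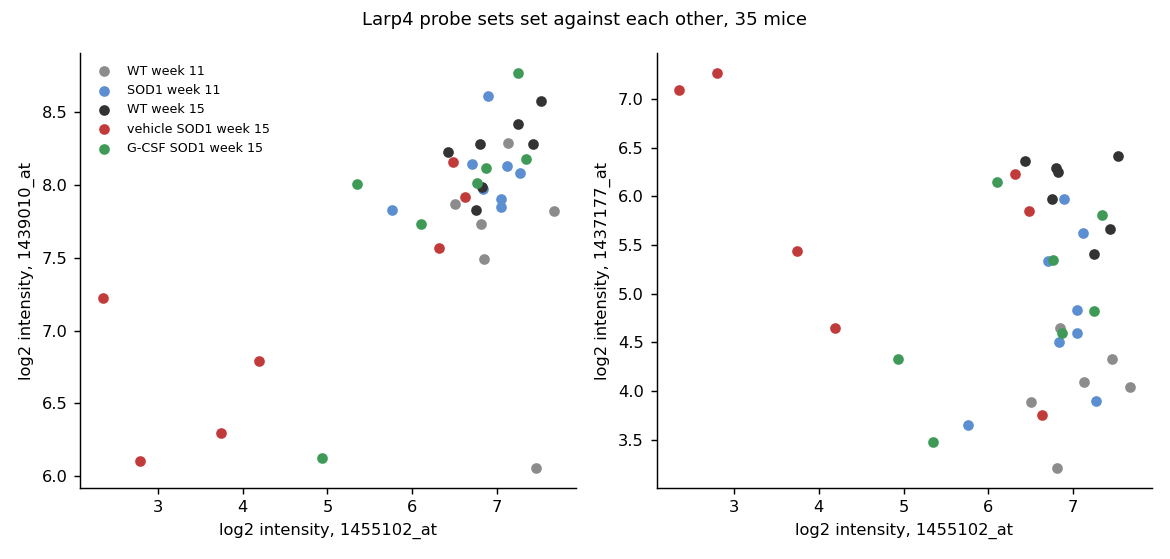
Log2 intensity of Larp4 probe set 1455102_at (x axis) against 1439010_at (left) and 1437177_at (right), with 1 point per mouse and colours for the 5 groups. The left panel rises (r of 0.65 over all 35 mice) and the right panel does not (r of -0.29); both vehicle mice at the far left of the right panel lie at its top.

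The genes whose deviations followed Larp4 1455102_at most closely over the 35 mice were Cul3 (r of 0.84), Usp45 (0.79), Ssr3 (0.77), Gabra2 (0.77) and Fam8a1 (0.77). Cul3 is the scaffold of a family of ubiquitin ligases, Usp45 is a deubiquitinase, Ssr3 belongs to the translocon-associated complex and Gabra2 is a GABA-A receptor subunit. Their own differences were -1.06 to -1.33 for vehicle against WT and 0.52 to 0.96 for G-CSF against vehicle. All points share the arrays, and the genes were picked for the highest r. The vehicle mice, with the widest deviations on 1455102_at, weigh most in these r values too. Among the 20 filtered probe sets of the other 9 genes, the highest r was that of Larp6 1418400_at (0.49) and the lowest that of Pabpc4 1451296_x_at (-0.22).

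Markers of other cells moved between vehicle and WT mice of week 15 as well. The mean level of 15 microglia markers was 3.92 to 5.04 in vehicle mice and 3.38 to 3.85 in WT mice of week 15, and 5 of 13 filtered markers rose, among them Tyrobp by 2.82 (SE 0.61, limma adjusted p = 0.0074). Itgam was at or under the 20th centile in all WT mice of week 15. The mean level of 10 motoneuron markers was 6.26 to 6.99 in vehicle mice and 6.89 to 7.26 in WT mice, with 2 of 10 lower, Chodl by -2.89 (SE 0.33, limma adjusted p = 4.48e-06) and Mmp9 by -1.94 (SE 0.28, limma adjusted p = 0.000147). General neuron markers lay at 9.29 to 10.38 against 10.23 to 10.72, with 3 of 11 lower. Of astrocyte markers 1 of 12 was higher, Gfap, of endothelial markers 1 of 9 was higher and of oligodendrocyte markers 1 of 9 was lower. By the same test, 530 of all 31320 filtered transcripts were higher and 1309 were lower. The part of other cells in the Larp4 values was not tested. Since a set number of cells was dissected and the RNA amplified, fewer intact motoneurons and less RNA per motoneuron cannot be told apart.

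The question at week 11 is whether the family differs before motor signs. No member passed the test between SOD1 and WT mice of week 11. Here Larp4 was tested too, since week 11 played no part in its choice. To pass, a transcript needed a fold change of 1.5 or more together with p under 0.05 before and under 0.1 after Benjamini-Hochberg adjustment. The count was 0 of 23, beside 1.32% of all 31320 filtered transcripts. Larp4 1455102_at was lower in SOD1 mice by -0.24 (SE 0.50, limma adjusted p = 0.935). The sign was the other way for 1439010_at (0.52, SE 0.33, limma adjusted p = 0.606) and 1437177_at (0.77, SE 0.44, limma adjusted p = 0.557). On 1455102_at the SD was 0.44 in WT and 0.47 in SOD1 mice of week 11, but 1.82 in vehicle mice. The spread shared by all groups thus made its SE too large for week 11. Its p also draws on the vehicle values by which Larp4 was chosen, and is no test on week 11 alone. The difference of -0.24 was in any case under the fold threshold. Without WT mouse 6 of week 11 the difference on 1439010_at was 0.22.

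At an unadjusted p under 0.05 there were 4 of 23 at week 11, beside 11.0% of all transcripts. Tukey's comparison called 0, beside 574 higher and 119 lower of all 31320 transcripts. Larp4b 1434597_at had the lowest adjusted p. It read 8.29, 8.82 and 9.22 in WT mice and 9.05, 9.25 and 9.57 in SOD1 mice, a difference of 0.49 (SE 0.15, limma adjusted p = 0.149) with overlap between the groups. The others were Pabpc4 1451296_x_at (0.81, SE 0.29), Pabpn1 1415728_at (0.60, SE 0.23) and Paip1 1456852_at (-0.58, SE 0.26). WT mouse 6 is the lowest of its group on this Pabpc4 probe set, at 4.02, and without it the difference was 0.47. The median difference over the 23 probe sets was 0.13, against -0.01 over all transcripts. With array weights 1 of 23 passed, Paip1 1456852_at (-0.69, SE 0.22), beside 3.54% of all transcripts.

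At week 15, none of the 20 filtered probe sets of the other 9 genes passed the test between vehicle SOD1 and WT mice, beside 5.87% of all transcripts. Tukey's comparison called 0 as well, beside 446 higher and 1096 lower of all 31320 transcripts. An unadjusted p under 0.05 was found for 5 of 20, beside 19.5% of all transcripts. The differences lay between -0.77 and 0.36, with a median of 0.00 and 10 above zero, against a median of 0.02 over all transcripts. Every 95% interval among the brightest probe sets of these genes stayed between -1.41 and 0.77. None of the 20 was as far from WT as Larp4 1455102_at or 1439010_at, a contrast that the choice of Larp4 fixes in part.

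Larp1b came nearest to Larp4 among the La-related genes. Probe set 1451508_at read 5.10, 6.34 and 7.00 in vehicle mice, 6.32, 6.93 and 7.54 in WT mice of week 15 and 5.35, 6.39 and 7.79 in G-CSF mice. The groups overlapped, and vehicle differed from WT by -0.77 (SE 0.32, limma adjusted p = 0.169). Larp1 1428244_at read 7.27, 8.25 and 9.08 in vehicle mice and 7.92, 8.67 and 8.93 in WT mice, a difference of -0.36 (SE 0.20, limma adjusted p = 0.311). The vehicle mice held both the lowest and the highest Larp1 value of the 5 groups.

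Larp4b, the paralog of Larp4 (chr13:9093653-9174451), has 2 probe sets. Probe set 1434598_at read 8.45, 9.06 and 9.32 in vehicle mice, 8.97, 9.46 and 9.60 in WT mice and 8.82, 8.89 and 9.47 in G-CSF mice. It was lower in vehicle mice by -0.36 (SE 0.17, limma adjusted p = 0.225), with overlap. Probe set 1434597_at read 8.61, 9.12 and 9.23 in vehicle mice and 8.79, 9.09 and 9.24 in WT mice, with a difference of 0.00 and a 95% interval from -0.31 to 0.31.

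Larp6 1418400_at read 4.35, 5.95 and 6.62 in vehicle mice and 4.84, 5.30 and 6.29 in WT mice, a difference of 0.01 (SE 0.38). Its other probe set, 1443028_at, was dim, with group medians between 2.37 and 2.90 beside a 20th centile of 2.40. Larp7 1429558_a_at read 6.19, 6.90 and 7.60 in vehicle mice and 5.93, 6.90 and 7.21 in WT mice, a difference of 0.21 (SE 0.23). On Larp7 1428310_at the sign was the other way, at -0.42 (SE 0.27, limma adjusted p = 0.401).

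No poly(A)-binding protein passed in the same comparison. Pabpc1 1418883_a_at read 9.05, 9.43 and 10.31 in vehicle mice and 9.40, 9.77 and 10.14 in WT mice, a difference of -0.21 (SE 0.23, 95% interval -0.67 to 0.25). Pabpc1 has close paralogs and processed copies, so its signal may hold more than 1 gene. Pabpc4 1451296_x_at, of a type that can match other transcripts, read 5.86, 6.55 and 6.79 in vehicle mice and 5.47, 6.22 and 7.01 in WT mice, a difference of 0.11 (SE 0.28).

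Pabpn1 1422849_a_at, the nuclear protein, had the lowest adjusted p of the 20 in this comparison. It read 12.35, 12.61 and 13.07 in vehicle mice, 12.15, 12.31 and 12.59 in WT mice and 12.30, 12.41 and 13.11 in G-CSF mice. Vehicle was higher than WT by 0.36 (SE 0.14, limma adjusted p = 0.131), under the fold threshold and with overlap. All 4 Pabpn1 probe sets lay above zero, between 0.05 and 0.36. Paip1 1451740_at read 9.17, 9.43 and 10.03 in vehicle mice and 9.33, 9.86 and 10.29 in WT mice, a difference of -0.36 (SE 0.16, limma adjusted p = 0.205).

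**Figure D3:**
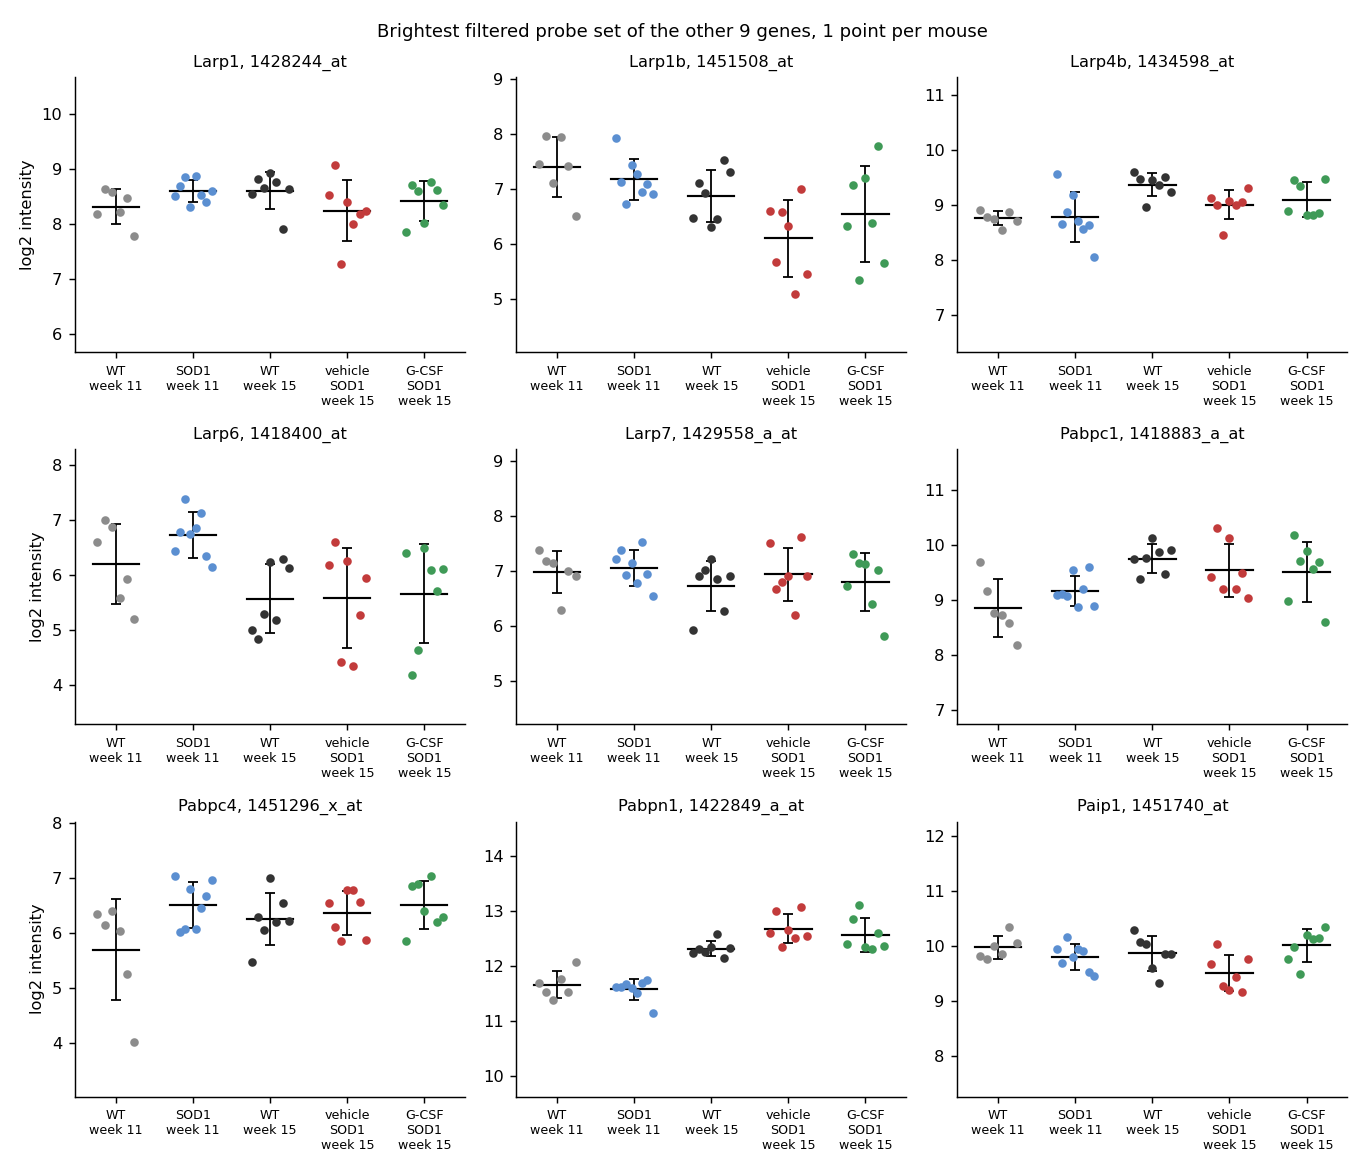
Log2 intensity of the brightest filtered probe set of each of the other 9 genes, with 1 point per mouse, the group mean as a line and 1 SD as a bar. Each panel spans the same number of log2 units; the groups overlap in all panels at week 15, and Pabpn1 is higher in every mouse of week 15 (12.15 to 13.11) than in every mouse of week 11 (11.14 to 12.07).

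Between G-CSF and vehicle mice 0 of the 20 probe sets passed the test, beside 0.0383% of all transcripts (12 of 31320), so that the count of 0 says nothing particular of these genes. Tukey's comparison called 0, beside 195 higher and 158 lower of all 31320 transcripts, many more than the 12 of the main test. Of the 20, 1 had an unadjusted p under 0.05, beside 8.30% of all transcripts. This was Paip1 1451740_at, which read 9.49, 10.13 and 10.35 in G-CSF mice and 9.17, 9.43 and 10.03 in vehicle mice, with overlap and a difference of 0.50 (SE 0.16, limma adjusted p = 0.350). Its 95% interval ran from 0.18 to 0.82. Larp7 1428310_at (0.48, SE 0.27) and Larp1b 1451508_at (0.43, SE 0.32) came next, and the lowest value was that of Larp4b 1434597_at (-0.20, SE 0.15). The median over the 20 was 0.04, against 0.00 over all transcripts. Against WT mice of week 15, G-CSF mice differed in 0 of 20 probe sets, beside 1.1% of all transcripts. The count was 0 at an unadjusted p under 0.05, and the differences lay between -0.33 and 0.33. Tukey's comparison called 0 of the 20 here, beside 237 higher and 536 lower of all 31320 transcripts.

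The change of the SOD1 effect from week 11 to week 15, vehicle against WT at week 15 minus SOD1 against WT at week 11, passed the test in 0 of 20 probe sets, beside 2.9% of all transcripts. An unadjusted p under 0.05 was found for 4 of 20, beside 18.1% of all transcripts. The median was -0.29 against 0.02 over all transcripts, and 5 of 20 were above zero. Larp1 gave -0.65 (SE 0.28, limma adjusted p = 0.220) and Pabpc4 1451296_x_at -0.70 (SE 0.40, limma adjusted p = 0.352). Pabpn1 1422849_a_at gave 0.45 (SE 0.20, limma adjusted p = 0.224) and Paip1 1456852_at 0.86 (SE 0.37, limma adjusted p = 0.215). For Larp4, as a description, it was -2.12 (SE 0.71) on 1455102_at, -1.60 (SE 0.46) on 1439010_at and -1.06 (SE 0.61) on 1437177_at.

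**Figure D4:**
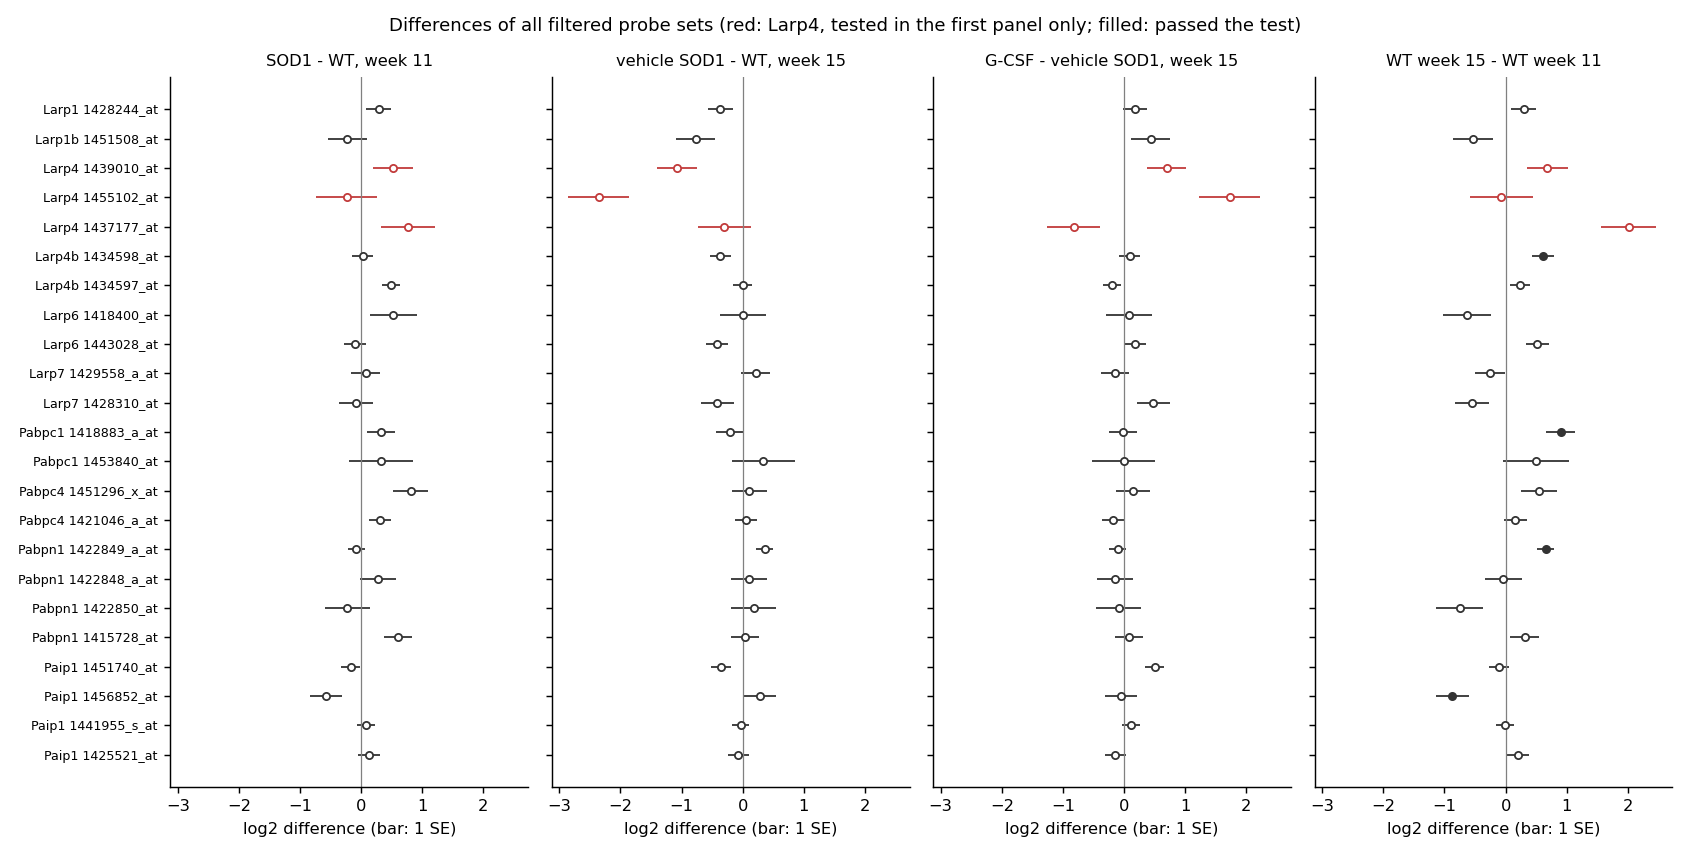
Log2 differences of all 23 filtered probe sets of the 10 genes in 4 comparisons, with bars of 1 SE. Larp4 is red and was tested in the first panel only; filled points passed the test, which are the 4 probe sets of Larp4b, Pabpc1, Pabpn1 and Paip1 between WT mice of week 15 and week 11.

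Between WT mice of week 15 and WT mice of week 11, 4 of 20 probe sets passed the test, beside 5.55% of all transcripts. Of the 4, 3 rose and 1 fell, beside 3.28% and 2.27% of all transcripts. Pabpc1, Pabpn1 and Larp4b rose and Paip1 fell at 1 probe set each, and age and cohort cannot be told apart here. Pabpn1 1422849_a_at read 11.38, 11.61 and 12.07 at week 11 and 12.15, 12.31 and 12.59 at week 15, with no overlap, a difference of 0.66 (SE 0.14, limma adjusted p = 0.0058). Pabpc1 1418883_a_at read 8.18, 8.76 and 9.70 at week 11 and 9.40, 9.77 and 10.14 at week 15, a difference of 0.90 (SE 0.24, limma adjusted p = 0.022), with overlap through 1 WT mouse of week 11. Larp4b 1434598_at read 8.55, 8.76 and 8.91 and then 8.97, 9.46 and 9.60, with no overlap and a difference of 0.61 (SE 0.18, limma adjusted p = 0.0383). Paip1 1456852_at read 4.51, 5.44 and 6.32 and then 4.10, 4.67 and 4.85, with overlap and a difference of -0.87 (SE 0.27, limma adjusted p = 0.062).

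The other probe sets of these genes did not pass. For Pabpn1 they gave -0.75, -0.04 and 0.32, for Pabpc1 0.50 (SE 0.54), for Larp4b 0.24 (SE 0.16), and for Paip1 -0.11, -0.01 and 0.21. Pabpn1 1422849_a_at also split the weeks over all 5 groups, with 11.14 to 12.07 in the 14 mice of week 11 and 12.15 to 13.11 in the 21 mice of week 15. It was the only member of 23 that did so, and 0.121% of all transcripts stood wholly higher at week 15. The largest difference of the family between the WT groups was that of Larp4 1437177_at, which read 3.21, 4.07 and 4.65 at week 11 and 5.41, 6.25 and 6.42 at week 15, with no overlap and a difference of 2.02 (SE 0.45). This value is a description.

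The 18S ribosomal RNA control probe sets read 8.88, 9.55 and 10.39 in WT mice of week 11 and 11.59, 12.16 and 12.39 in WT mice of week 15. With their level as a covariate 0 of the 20 probe sets passed, beside 1.21% of all transcripts. The differences were then 0.45 for Pabpn1 1422849_a_at and 0.57 for Pabpc1 1418883_a_at, smaller than before, and 0.67 for Larp4b 1434598_at and -1.21 for Paip1 1456852_at, larger than before. For Larp4b and Paip1 the limma adjusted p was 0.424 and 0.317. The 18S level did not overlap between the WT groups, so that it and the week can hardly be told apart in this fit. A call lost with the covariate thus does not show a smaller difference. With array weights 7 of 20 passed, beside 12.1% of all transcripts, and without WT mouse 1 of week 15 the count was 2, Larp4b and Paip1 being lost. Cell markers moved between the WT groups too, beside 3.28% of all transcripts called higher and 2.27% called lower. Of interneuron markers 3 of 8 were lower at week 15, Gad1, Pvalb and Slc6a5, and of oligodendrocyte markers 3 of 9 were higher, Cnp, Mag and Mobp (median of the 9 markers 0.50). Of 13 microglia markers 1 was lower, Ctss, by -1.78 (SE 0.37, limma adjusted p = 0.0035). Of 10 motoneuron markers Slc5a7 was higher and Slc18a3 lower, and of 11 general neuron markers Uchl1 was lower. Of astrocyte and endothelial markers 1 each was higher, Slc1a2 and Slc2a1. Their part in the 4 differences was not tested.

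Of the genes that work with this family, none passed the test between G-CSF and vehicle mice. This stands beside 0.0383% of all transcripts, so that it says nothing particular of these genes. The brightest filtered probe set of each gene was taken. The list of partners of the cytoplasmic poly(A)-binding protein also holds translation factors, such as Eif4g2 and Eif4a2, for which direct binding is not implied. Of its 21 measured genes, 3 fell in vehicle against WT mice of week 15. These were Gspt2 by -1.52 (SE 0.34, limma adjusted p = 0.0094) and Gspt1 by -0.81 (SE 0.28, limma adjusted p = 0.0918), both release factors of translation, and Eif4g2 by -0.97 (SE 0.27, limma adjusted p = 0.0382), an initiation factor. This stands beside 5.87% of all transcripts called either way. The median of the 21 was -0.27, against 0.02 over all transcripts, and that of the 11 general neuron markers, of which 3 were lower, was -0.37. The SOD1 effects of week 15 and week 11 differed for Gspt2, Eif4g2 and Eif4a2, a helicase of initiation, all lower (-1.46 to -1.62). This stands beside 2.9% of all transcripts called either way, 240 higher and 668 lower of 31320. At week 11, 1 of 21 fell in SOD1 mice, Atxn2, an RNA-binding partner of Pabpc1, by -1.09 (SE 0.24, limma adjusted p = 0.0197). Of all transcripts 1.32% were called either way there, 354 higher and 59 lower of 31320. Between the WT groups Atxn2, Atxn2l and Tnrc6a were higher at week 15, by 0.77 to 1.03, beside 3.28% of all transcripts called higher.

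Of 23 measured genes of nuclear cleavage and polyadenylation, 1 rose in vehicle mice, the scaffold Sympk, by 0.69 (SE 0.22, limma adjusted p = 0.0664), and none passed in another comparison. Of 10 measured genes of TOR signalling, Eif4ebp1, a repressor of cap-dependent translation, rose in vehicle mice by 0.96 (SE 0.28, limma adjusted p = 0.0421), and Tsc1 was higher in WT mice of week 15 than of week 11 by 1.00 (SE 0.24). Of 7 genes of La and the 7SK particle, only Ssb, the La protein, passed a test, with 0.60 (SE 0.20) between the WT groups. None of the 7 deadenylating nucleases and none of the 2 measured other poly(A)-binding proteins passed in any comparison. The share of all transcripts called either way ran from 0.0383% to 5.87% by comparison. A count of 0 in lists this short thus says nothing particular of them. Of all 31320 transcripts, 530 were called higher in vehicle against WT mice of week 15. Between WT mice of week 15 and week 11, 1028 were called higher.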

How the data were processed

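RNA of lumbar motoneurons from 35 mice was amplified and hybridized to Affymetrix mouse arrays. The authors applied GCRMA through Affymetrix Expression Console, with no version stated, and the deposited values are log2 intensities of 45101 probe sets per array. GCRMA draws dim probe sets to a common low level, which shrinks their differences. Levels of different probe sets were ranked only to take the brightest of each gene. Groups came from the labels. Probe sets were named through the platform's gene numbers (34945 with 1 gene, 932 with several), and positions are those of RefSeq genes on GRCm38.p6.

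The filter of the methods (intensity above 2.40, the 20th centile, on 4 or more arrays and an SD of at least 0.241, the 30th centile) left 31320 transcripts of 14256 named genes. limma 3.58.1 (R 4.3.3) was fitted over them with 1 mean per group and all 35 mice, and p-values were adjusted over all transcripts of a comparison (Benjamini-Hochberg). Each transcript had a single estimate of spread shared by all groups, so an SE does not follow the spread of the groups compared. The number of arrays limits the precision. The step was tested on simulated data. Tables and plots used Python 3.11.15, pandas 2.3.3 and matplotlib 3.10.9.

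The members and all lists were chosen with earlier results of these data known. Described in full were every Larp4 probe set, the brightest filtered probe set of each other gene, every probe set that passed a test, list members that passed a test, and the 5 genes most like Larp4 1455102_at by Pearson's r over deviations from group means. A few other probe sets were named after their values were seen. Mice with the same number in different groups did not deviate together (66 pairs, r from -0.21 to 0.14, 1 over 0.1), so the numbers were not used as pairs. Alternatives were other filters, thresholds, normalization, ANOVA with Tukey's comparison, fits of fewer groups, array weights, a prior with an intensity trend, the replicate number as a block, the 18S level as a covariate, a floor, and leaving out mice. With Tukey's comparison, the p adjusted over transcripts was that of the ANOVA over all groups, and the p of the comparison itself was not adjusted over transcripts. No quantitative PCR was analysed here.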

Additional observations from a re-analysis of the deposited data

Results flagged for a closer look

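In 7 of 65 groups of values (13 described probe sets, 5 groups each), 1 mouse lay far from the others of its group, where chance gives about 1 in 20, or 3.25. On Larp4 1439010_at this was WT mouse 6 of week 11 at 6.06 (others 7.49 to 8.29), SOD1 mouse 1 of week 11 at 8.61 (others 7.83 to 8.15) and G-CSF mouse 3 at 6.12 (others 7.73 to 8.77). On Larp4 1455102_at it was SOD1 mouse 8 of week 11 at 5.76 (others 6.70 to 7.27). On Larp4b 1434598_at it was vehicle mouse 3 at 8.45 (others 9.01 to 9.32). On Pabpn1 1422849_a_at it was SOD1 mouse 8 of week 11 at 11.14 (others 11.51 to 11.74), and on Larp1 1428244_at WT mouse 6 of week 15 at 7.92 (others 8.55 to 8.93). The vehicle mice met no such criterion on Larp4 1455102_at, where their values spread over the whole range from 2.35 to 6.63.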

How the results depend on the processing

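Over 55 results, 14 other settings and 35 fits that each left out 1 mouse, these results changed. Among 40 tested single differences, 12 changed sign under at least 1 setting, none of which had passed the test and all of size 0.29 or less (for Larp1 between the WT groups 0.29, and -0.25 with the 18S covariate; for Larp4 1455102_at at week 11 -0.24, and 0.018 with it). At week 11 the count of members was 1 with array weights, in place of 0. Between WT mice of week 15 and week 11 the count was 7 with array weights, 0 with the 18S covariate, and 2 to 5 on leaving out 1 mouse, in place of 4. There Paip1 1456852_at did not pass with Tukey's comparison, at an adjusted p under 0.05, with the 18S covariate or without any of 6 single mice, and Larp4b 1434598_at did not pass with the covariate or without either of 2 single mice; with the covariate their differences were larger (-1.21 and 0.67). Pabpc1 and Pabpn1 did not pass with the covariate, and Larp1b passed with array weights (-0.66). The 18S level did not overlap between the WT groups, so it can hardly be told apart from the week there. The difference of Larp4 1455102_at between the WT groups (-0.07) was 0.042 with array weights, 0.75 with the 18S covariate and 0.00865 without the 3 arrays that stood apart, and ran from -0.18 to 0.051 on leaving out 1 mouse. That of 1437177_at for vehicle against WT ran from -0.55 to 0.035. For Larp4 1455102_at, vehicle against WT ran from -2.69 to -1.98 and G-CSF against vehicle from 1.35 to 2.06 on leaving out 1 mouse. The cause was not tested. The replicate block changed no count of members, with 4 of 20 between the WT groups. Tukey's comparison and fits of fewer groups could not give the difference between weeks, nor could fits of 1 week compare the WT groups.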
